A study of Mus musculus with 36 samples.

Results

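The enzymes that write methylation on lysine 9 of histone H3, and the heterochromatin protein 1 (HP1) family that reads it, were examined here as targets of their own mark: the H3K9me3 signal in mouse liver at the genes Setdb1, Setdb2, Suv39h2, Ehmt1, Ehmt2, Trim28, Atf7ip, Cbx1, Cbx3 and Cbx5. The 10 genes were taken by symbol from the authors' 6 deposited tables of H3K9me3 bins. Each bin there carries the authors' gene symbol and its distance to a transcription start site (TSS) of that gene. The symbol is not always that of the gene under the bin. The 10 genes accounted for 193 of 786789 bins in all, at 9 of the 10 genes, and the tables named 22325 genes. By table, the number of their bins was 30 of 120683, 33 of 140214 and 27 of 116257 in females (controls at both ages, both diets at 3 weeks, both diets at 8 weeks), and 37 of 148133, 40 of 159357 and 26 of 102145 in males in the same order.

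SETDB1, SETDB2 and SUV39H2 are lysine methyltransferases linked to trimethylation of H3K9, whereas EHMT1 (GLP) and EHMT2 (G9a) form a complex that mainly places the lower methylation states. SETDB1 is brought to retroelements and other targets by TRIM28 (KAP1), the corepressor of KRAB zinc finger proteins, and is stabilised in the nucleus by ATF7IP. The HP1 proteins bind methylated H3K9 with their chromodomain: Cbx5 encodes HP1α, Cbx1 HP1β and Cbx3 HP1γ. The mark is known for silencing repeats and for limiting the genes a differentiated cell such as the hepatocyte can use.

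H3K9me3 was profiled by chromatin immunoprecipitation and sequencing (ChIP-seq) of frozen liver from the offspring of dams fed chow (control, C) or a Western-style diet (maternal obesity, M), in females (F) and males (M), at 3 weeks, before weaning (3w), and at 8 weeks, after the offspring of both kinds of dam had been kept on chow since weaning (8w). The 32 ChIP libraries fell into 8 groups of 4 (CF 3w, MF 3w, CM 3w, MM 3w, CF 8w, MF 8w, CM 8w and MM 8w), and 4 input libraries were not used here. By the study's methods the mice of every group, controls included, were Reg3g fl/+ or Reg3g fl/fl offspring of an in-house C57BL/6J colony and of wild-type sires, so all of them carried a floxed Reg3g allele. The 8-week mice came from further cohorts, and the 4 libraries of a group from separate livers. Each deposited table compares 2 groups and gives, for every bin of about 500 bases or less, 1 average log2 CPM (read counts scaled to library size) over the 8 libraries of both groups. This authors' mean carries no spread between animals, so no error, replicate number or test stands beside the values below, and every comparison is a description. The authors' own fold changes and p-values were not used.

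The depth of a library cannot be read from a table of means, so no counting error is given. The median bin had an average log2 CPM of 2.03 to 2.74 by table, with the 5th to 95th percentile of bins at 1.67 to 2.57 in the 3-week male table and 2.37 to 3.47 in the 8-week male table. Levels were therefore read as the bin's percentile among all bins of its own table. A shorter bin collects fewer reads, so the percentile of log2 CPM per 500 bases was used beside it to compare bins of different length. On that second scale short bins stood higher and bins of full length lower. It takes reads to grow in proportion to the length of a bin, which was not tested, so very short bins may stand too high on it. Neither scale alone settles how the levels of different genes compare. Each peak contributed exactly 1 bin to a table, also where the peak was long enough for several, and how that bin was chosen is not given in the sources used here. Of 6 hepatocyte genes looked at for the tissue label, Alb and Fgb had no bin in any table, Ttr had 13 bins over the tables but none in the gene, and Apoa1, Apob and Tat had 6, 75 and 16, of which 5, 5 and 3 lay in the gene or 3 kb before it. Bins of the mark cannot by themselves show which cell of the liver carried them.

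The sequences below come from the strongest promoter bins of 4 members and the strongest other bin of Atf7ip. They are shown because they were of different kinds: CpG-rich sequence close to the start sites of Ehmt1, Cbx1 and Setdb2, and sequence inside Atf7ip that was not CpG-rich. A bin was named CpG-rich where its ratio of observed to expected CpG was at least 0.6 and its GC content at least 55%. Bases are from RefSeq's GRCm38.p6 (mm10), plus strand, up to 300 bases of the bin outside annotated untranslated sequence, with each CpG in capitals.
Ehmt1 near the start site, chr2:24919016-24919315, 36 CpG: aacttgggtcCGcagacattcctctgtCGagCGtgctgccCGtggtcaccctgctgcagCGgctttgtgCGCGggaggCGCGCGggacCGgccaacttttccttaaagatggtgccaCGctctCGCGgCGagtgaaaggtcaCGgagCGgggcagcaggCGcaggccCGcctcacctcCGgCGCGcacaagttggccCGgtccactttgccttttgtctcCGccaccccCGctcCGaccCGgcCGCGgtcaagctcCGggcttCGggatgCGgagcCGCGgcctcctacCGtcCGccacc
Cbx1 near the start site, chr11:96789354-96789634, 35 CpG: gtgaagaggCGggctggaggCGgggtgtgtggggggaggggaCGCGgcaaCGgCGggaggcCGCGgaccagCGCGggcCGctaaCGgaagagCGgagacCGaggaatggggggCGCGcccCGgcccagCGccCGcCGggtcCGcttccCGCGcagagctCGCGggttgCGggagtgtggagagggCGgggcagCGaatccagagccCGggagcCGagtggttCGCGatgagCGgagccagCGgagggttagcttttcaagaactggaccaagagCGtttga
Setdb2 near the start site, chr14:59441019-59441229, 12 CpG: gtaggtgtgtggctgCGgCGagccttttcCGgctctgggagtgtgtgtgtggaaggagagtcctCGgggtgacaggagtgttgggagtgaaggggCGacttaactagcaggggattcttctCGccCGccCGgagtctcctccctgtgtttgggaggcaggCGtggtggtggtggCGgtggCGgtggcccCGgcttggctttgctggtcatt
Atf7ip internal promoter, chr6:136560378-136560677, 10 CpG: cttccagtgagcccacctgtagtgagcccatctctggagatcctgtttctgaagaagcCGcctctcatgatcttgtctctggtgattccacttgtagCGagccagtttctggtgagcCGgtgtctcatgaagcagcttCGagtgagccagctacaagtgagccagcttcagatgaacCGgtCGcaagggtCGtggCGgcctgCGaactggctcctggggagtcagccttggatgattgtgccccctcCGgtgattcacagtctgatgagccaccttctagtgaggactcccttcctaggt
Atf7ip intron 1, chr6:136514324-136514623, 6 CpG: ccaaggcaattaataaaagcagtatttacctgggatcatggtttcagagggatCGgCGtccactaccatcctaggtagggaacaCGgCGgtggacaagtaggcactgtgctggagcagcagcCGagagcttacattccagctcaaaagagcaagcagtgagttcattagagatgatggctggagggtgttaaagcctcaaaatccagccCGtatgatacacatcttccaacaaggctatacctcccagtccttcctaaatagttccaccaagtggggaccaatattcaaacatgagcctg

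Pooled over the genes, the members' bins lay in promoters more often than bins in general. Within 3 kb of a TSS lay 35.0% to 48.1% of the members' bins by table (12 to 14 bins), against 19.7% to 22.9% of all bins. Distal intergenic bins made up 20.0% to 30.0%, against 38.0% to 40.3% of all bins. The plot of annotation by table shows this in each of the 6 tables. The pooled share did not describe every gene. Over the 6 tables, promoters held 15 of 94 bins at Atf7ip and 0 of 12 at Setdb1, both below the share of all bins. They held 19 of 32 at Ehmt1, 13 of 13 at Ehmt2, 13 of 13 at Trim28 and 5 of 5 at Cbx5. At Cbx1 the count was 6 of 9, at Cbx3 3 of 9 and at Setdb2 3 of 6. The members' start sites were mostly CpG-rich: in RefSeq's promoter sequences (250 bases before to 50 after the start, GRCm38.p6), the 10 members matched 13 promoters, of which 11 were CpG-rich, against 30.3% of 32851 promoters. CpG-rich promoters as a class often overlapped a peak, 79.7% of them by the female and 83.2% by the male peak sets, where the share of all promoters was 47.3% and 49.0%. Of the 13 member promoters, 7 overlapped a listed female peak and 10 a male one. Of the 11 that were CpG-rich, 6 did so by the female and 8 by the male peaks, so the members' CpG-rich promoters were in peaks no more often than such promoters in general.

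**Figure D1:**
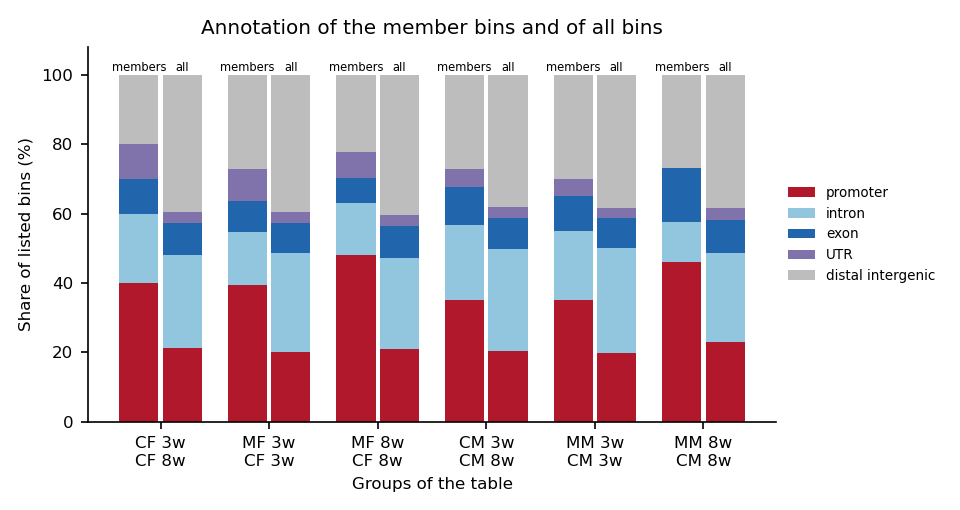
Share of listed bins (vertical axis, %) in promoters (within 3 kb of a start site), introns, exons, untranslated regions and distal intergenic sequence, for the members' bins and for all bins of each of the 6 tables (horizontal axis, groups of the table). Promoters held 35.0% to 48.1% of the members' bins and 19.7% to 22.9% of all bins.

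The level of the mark at these genes spanned nearly the whole range of the tables. The members' median percentile was 63.7, 65.5 and 59.0 in the 3 female tables (controls, 3 weeks, 8 weeks) and 57.4, 47.3 and 58.5 in the 3 male tables, where all bins have a median of 50 by construction. Without Atf7ip, a setting chosen after seeing the data, the median was 29.4 in the female 3-week table and 42.0 in the male 8-week table, on the other side of 50. Between 4 and 8 member bins a table were above percentile 90 (15.0% to 24.2% of them, where all bins have 10% by construction), and between 0 and 5 were below percentile 10 (0% to 18.5%). Most of those above percentile 90 carried the name Atf7ip in every table except that of males at 8 weeks. The others were at Setdb1, Setdb2, Ehmt1 and Cbx3. Per 500 bases, 2 to 5 member bins a table were above percentile 90 (5.0% to 15.2%, and under 10% in all tables but the female 3-week one), and the median percentile was 56.0 to 62.9, so that of the male 3-week table was on the other side of 50. A peak was also as often listed in all tables of a sex as any other: 24 of 38 member peaks in females (63.2%, against 61.3% of 156217 peaks) and 25 of 44 in males (56.8%, against 56.4% of 169602). Atf7ip alone held 94 of the 193 bins, and Suv39h2 held none. Counted over the gene and 3 kb before it, whatever symbol a bin carried, 3 of the 10 members (Ehmt2, Trim28 and Atf7ip) had more bins per 100 kb than the median of 7.03 over 14151 protein-coding genes of at least 10 kb. Setdb1 and Suv39h2 had no bin there in any table, as was true of 7.57% of those genes.

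**Figure D2:**
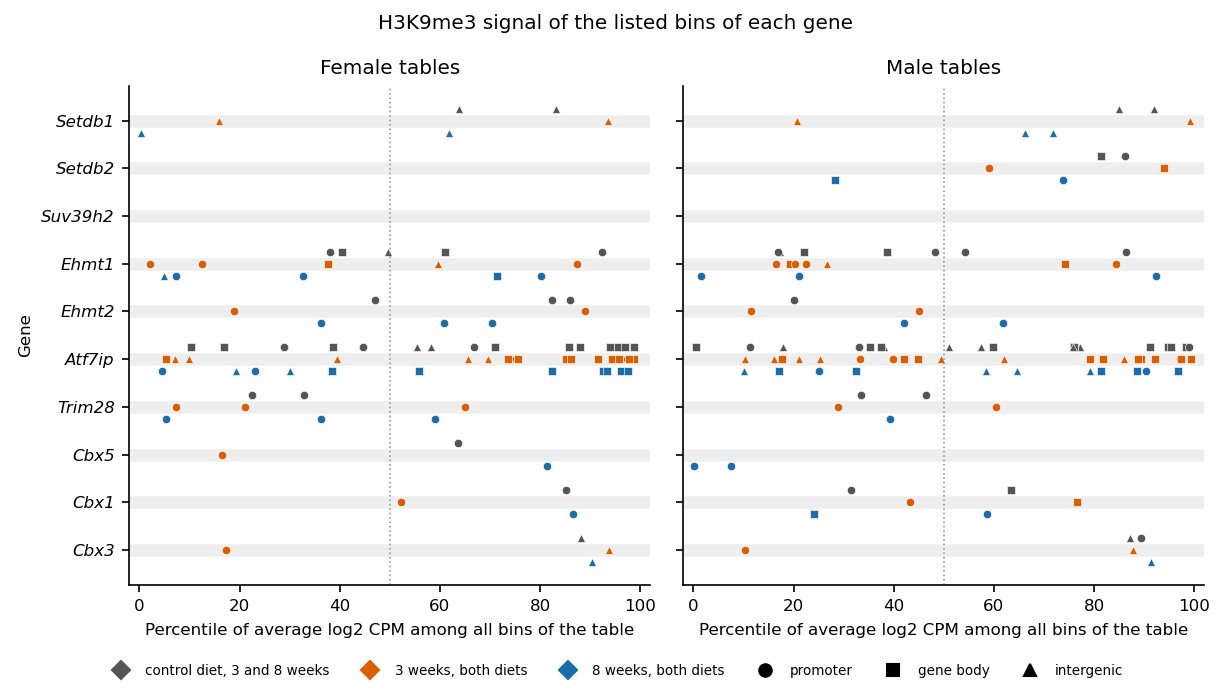
Signal of every listed bin of the 10 genes, as the percentile of its average log2 CPM among all bins of its table (horizontal axis), by gene (vertical axis) and sex (panels). Colours give the table and shapes the annotation; Suv39h2 has no bin, Setdb2 has bins in the male tables only, and Atf7ip holds the most bins, up to percentile 98.8 in females and 99.3 in males.

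Among the trimethylating enzymes, Setdb1 (chr3:95323525-95357202, minus strand) had listed bins outside the gene only, which does not show that the gene lacks the mark. The nearest listed bin of any gene lay 2775 bases from it and carried the name Cers2. The 2 Setdb1 peaks a sex were distal intergenic, about 16 and 19 kb before the TSS, and both were listed in all 3 tables of each sex. The peak nearer to the gene (chr3:95373308-95373821 in females) was read in the same bin in each female table, with an average log2 CPM of 2.97 in controls, 2.87 at 3 weeks and 2.73 at 8 weeks, which are percentiles 83.1, 93.5 and 61.7. In males the bin at the same place (chr3:95373333-95373833) was at 2.49 in controls (percentile 85.1) and 2.94 at 8 weeks (percentile 71.9), while the 3-week table listed the other bin of the peak, at 1.83 (percentile 20.7).

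The farther Setdb1 peak also varied between tables. In males it was read in 1 bin throughout (chr3:95376428-95376928, 57.7% soft-masked repeat sequence), at 2.64 in controls, 2.89 at 3 weeks and 2.88 at 8 weeks. These are percentiles 91.97, 99.2 and 66.2, and per 500 bases 68.7, 85.8 and 45.3, so the bin stood highest in the 3-week table on both scales. In females the bin chr3:95376128-95376628 was at 2.76 in the control table (percentile 63.9) and at 2.09 in the 8-week table (percentile 0.331), 2 tables that share the CF 8w libraries. The percentile of this female bin thus differed widely between tables with libraries in common.

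Setdb2 (chr14:59402009-59440884, minus strand) was listed in males only. Its 2 peaks were found in all 3 male tables, and no female table listed any peak overlapping either of them. The start-site bin (chr14:59440729-59441229), which also overlaps Cab39l on the other strand, was CpG-rich (ratio 0.82, GC 67.5%). Its average log2 CPM was 2.51 in controls, 2.10 at 3 weeks and 2.97 at 8 weeks, at percentiles 86.2, 59.1 and 73.8. The second bin, of 433 bases within Setdb2 and over the single exon of Gm16301 on the same strand (chr14:59414197-59414629), was at 2.43, 2.54 and 2.58, at percentiles 81.3, 94.0 and 28.3. Relative to the table, the exonic bin was the higher of both at 3 weeks and the start-site bin at 8 weeks. A peak missing from the female tables is a peak that did not enter them, not a measured absence of the mark.

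Suv39h2 (chr2:3455815-3475031, minus strand), the autosomal partner of the X-linked Suv39h1, had no bin in any of the 6 tables. The nearest bin of any gene lay 17.6 kb past its 3′ end in females, at Dclre1c, and 23.7 kb (Dclre1c) or 24.0 kb (Hspa14) away in males. Its promoter was CpG-rich like most members' (33 CpG in 300 bases, ratio 0.94).

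Of the G9a/GLP pair, Ehmt1 (chr2:24789928-24919614, minus strand) had, by log2 CPM, its highest bin at the start site and lower bins in the gene body. The start-site bin was listed in all 6 tables. In females (chr2:24918915-24919415) it was at 3.16 in controls, 2.75 at 3 weeks and 2.96 at 8 weeks, and in males (chr2:24919006-24919506) at 2.51, 2.35 and 3.34. These are percentiles 92.4, 87.4 and 80.2 in females and 86.3, 84.3 and 92.3 in males, all above 80. Per 500 bases they were lower, at 58.0 to 72.5 for the female bin and 56.9 to 74.4 for the male one. On that scale shorter bins inside or past the gene stood above the start site in every table but the male 8-week one. The bin was CpG-rich (ratio 1.07 and GC 68.5% for the female bin).

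The remaining Ehmt1 bins lay in the 3′ part of the gene and past it, as the plot along the gene shows, and their percentiles ran from 1.6 to 74.2. Internal start sites of shorter transcripts placed several of them in the promoter class. The bin chr2:24840238-24840702 was at 2.57, 2.16 and 2.29 in the female tables (percentiles 38.0, 12.5 and 7.37). The bin chr2:24807715-24808035 was at 2.14, 1.82 and 2.53 in the male tables (percentiles 54.3, 20.2 and 21.2), and as it spans 321 bases its percentile per 500 bases was higher, at 75.9, 64.1 and 65.2. The female bin at the same place (chr2:24807750-24808108) was at 2.02 at 3 weeks and 2.5 at 8 weeks. Near the 3′ end of the gene, a peak of 1532 bases in females was at percentiles 61.0, 37.6 and 71.4, and the male peak of 2532 bases at 38.7 in controls and 19.2 at 3 weeks, with no bin at 8 weeks. The intronic bin chr2:24846668-24847108 appeared in the female control table only (2.59, percentile 40.3), and at nearly the same place in males at 1.88 in controls and 2.23 at 3 weeks. Past the 3′ end, the intergenic bin chr2:24785322-24785662 was at 2.65, 2.47 and 2.25 in females, at percentiles 49.6, 59.5 and 4.89, or 74.9, 79.9 and 48.0 per 500 bases.

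The last Ehmt1 bins were found in males. The bin chr2:24838741-24839019 was at 2.09, 1.84 and 2.29 in the 3 male tables and was not matched by a female peak. The bin chr2:24840513-24840741 was at 1.84 in controls and 1.79 at 3 weeks. Both are under 300 bases, and per 500 bases they stood at percentiles 62.8 to 87.3. The intergenic male peak past the 3′ end was at 1.85 in controls and 1.87 at 3 weeks. By log2 CPM the start site was the highest bin of Ehmt1 in each of the 6 tables.

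Ehmt2 (chr17:34898469-34914052, plus strand), a short gene of 15.6 kb, had the densest coverage of the 10 genes, with 18.8 bins per 100 kb on average over the tables (percentile 90.9 of protein-coding genes). In females 3 peaks covered it: 1637 bases at the start, 552 bases within the gene, and a domain of 11332 bases (chr17:34904456-34915787, percentile 99.3 of female peak lengths) that runs on into Slc44a4. In males the domain measured 15152 bases (chr17:34903347-34918498, percentile 99.7). It was credited to Slc44a4 in 1 of the 3 female and 2 of the 3 male tables, because the bin that stood for it differed. The percentiles of the bins that stood for it were 47.0, 33.6 and 36.3 in females and 23.2, 57.6 and 61.9 in males, 1 bin a table out of the many this domain is long enough for.

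The bin within Ehmt2 that was the same in all female tables (chr17:34902876-34903376) was at 3.02 in controls, 2.77 at 3 weeks and 2.72 at 8 weeks, at percentiles 86.0, 89.0 and 60.7. Its male counterpart (chr17:34902907-34903242) was listed at 3 weeks alone, at 1.75 and percentile 11.5, or 55.2 per 500 bases. At the start site the listed bins differed between tables: in females chr17:34898270-34898770 was at 2.96 in controls and 2.83 at 8 weeks, whereas chr17:34898770-34899270 was at 2.21 at 3 weeks. In males the start-site peak was read at 1.87, 2.00 and 2.68 in 3 different bins.

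Atf7ip (chr6:136506167-136610862, plus strand), which encodes the partner that keeps SETDB1 in the nucleus, carried 11 to 21 bins a table, in 19 peaks in females and 22 in males. Of these peaks, 9 and 11 were listed in all 3 tables of their sex. Over the gene and 3 kb before it the density of bins was 8.98 per 100 kb (percentile 57.7 of protein-coding genes), so the many bins go with its length of 104.7 kb and with the stretch before it: 27 of the 94 bins were distal intergenic, of which 24 lay before the gene, up to about 45 kb from the TSS.

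By log2 CPM the highest member bins of the series were at Atf7ip. In intron 1 of a short transcript, 8 kb from the start of the gene, the bin chr6:136514247-136514747 was at 3.38, 3.14 and 3.44 in the female tables, at percentiles 96.9, 98.8 and 96.0. The male bin (chr6:136514223-136514723) was at 3.05, 2.91 and 3.60, at percentiles 98.4, 99.3 and 96.7. This bin had a GC content of 48.5% and few CpG, as its sequence above shows, and it was above percentile 96 in all 6 tables. Per 500 bases it stood at 83.7 to 85.8 in females and 86.7 to 88.7 in males.

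Further bins of Atf7ip were listed in every table of their sex. In the last exon the bin chr6:136606294-136606794 was at 3.05, 2.82 and 3.28 in females (percentiles 87.9, 91.6 and 93.3), and chr6:136606457-136606851 at 2.78, 2.49 and 3.22 in males (percentiles 95.4, 92.2 and 88.5). In intron 8, chr6:136583145-136583645 was at 3.22, 2.94 and 2.99 in females, and chr6:136583253-136583753 at 2.62, 2.43 and 3.08 in males, with percentiles between 81.5 and 95.7. Just past the end of the gene, in the female tables within Plbd1 on the other strand, chr6:136611669-136612137 was at 3.57, 3.05 and 3.58 in females (percentiles 97.5 to 98.7), and the male bin chr6:136611436-136611936 at 2.35, 2.37 and 2.87 (percentiles 64.7 to 86.0). At this place the percentile was higher in females in each pair of tables.

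The internal promoter peak of Atf7ip (chr6:136559759-136561235 in females) was listed in all 6 tables. In males its bins were at 3.17 in controls, 2.67 at 3 weeks and 3.28 at 8 weeks, at percentiles 98.9, 97.1 and 90.3. In females the bin chr6:136559759-136560259 was at 3.02 at 3 weeks and 2.25 at 8 weeks, at percentiles 97.3 and 4.57, and the control table listed another bin of the peak at 2.79 (percentile 66.9). The start site that RefSeq gives for Atf7ip was listed in the female 8-week table only (chr6:136518839-136519095, 2.43, percentile 23.1, or 81.6 per 500 bases), although its promoter is CpG-rich (29 CpG in 300 bases).

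Elsewhere in Atf7ip and before it, the bins were of middle height or varied. A peak of about 3.2 kb lying 19 kb before the gene, over Gm6728, was read in 1 CpG-rich bin in females (chr6:136486755-136487255) at 3.29, 2.71 and 3.25, at percentiles 95.5, 85.2 and 92.6. In males the listed bin of this peak differed by table, with percentiles of 94.8, 44.9 and 17.1. The intron 1 bin chr6:136510011-136510325 was at 2.82, 2.73 and 2.54 in females, and the intron 5 bin chr6:136569277-136569777 at 3.01, 2.90 and 2.68, at percentiles 85.7, 94.3 and 55.8. The male intron 13 bin chr6:136604831-136605105 was at 2.18, 2.42 and 2.61. In males a bin 2.14 kb before the RefSeq start (chr6:136516167-136516667) was at 1.97, 1.92 and 2.56, at percentiles 33.2, 33.2 and 25.0. Farther before the gene, the male bin chr6:136461114-136461537 was at 2.16, 1.83 and 2.81, at percentiles 57.4, 21.2 and 58.4. Among the lowest female bins was chr6:136574698-136575198 in intron 6, at 2.38 in controls and 2.09 at 3 weeks. By log2 CPM the lowest bin of the gene, of 68 bases in intron 9, was at 1.55 in the male control table (percentile 0.485), but per 500 bases it stood at percentile 99.93.

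**Figure D3:**
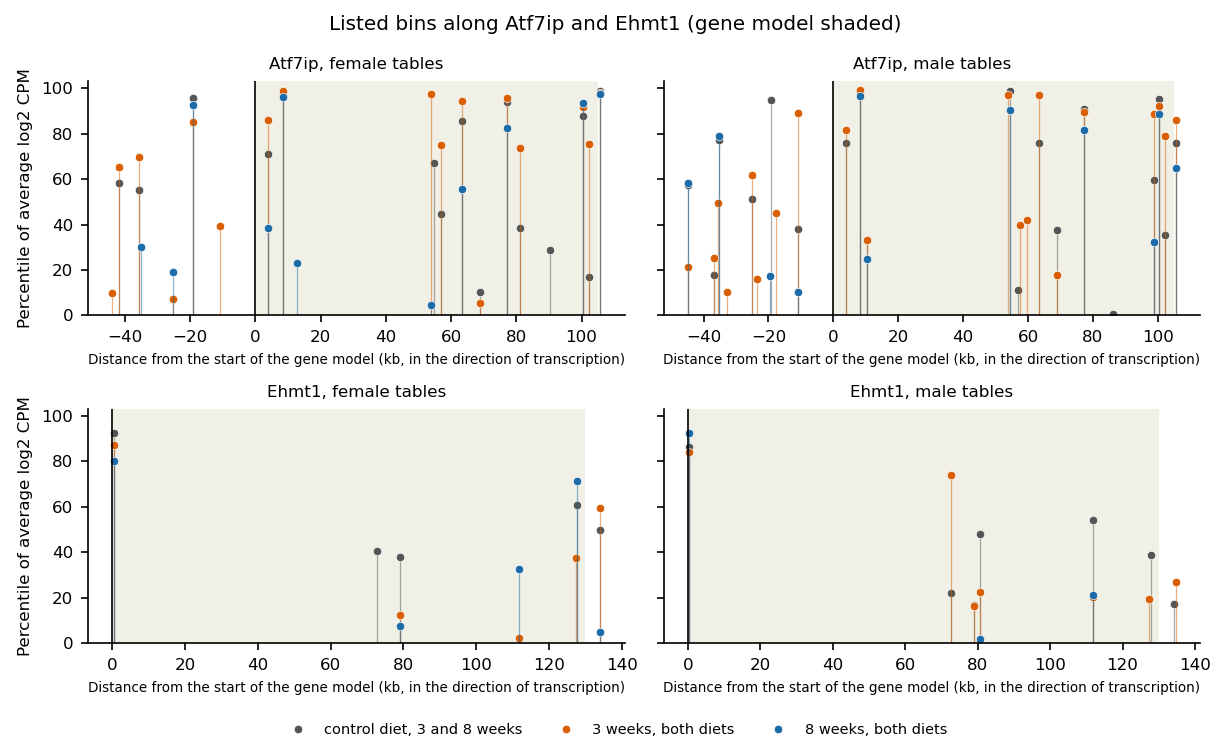
Listed bins along Atf7ip (top) and Ehmt1 (bottom) in female (left) and male (right) tables: distance from the start of the gene model in kb (horizontal axis, gene model shaded) against the percentile of the average log2 CPM in the table (vertical axis), coloured by table. Atf7ip has bins before the gene, near its start and in its 3′ part, up to percentile 99.3, whereas at Ehmt1 the bin at the start site is the highest in each table.

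Trim28, the corepressor that recruits SETDB1, has a gene model (chr7:12999114-13031035, plus strand) that begins well before the start site given by RefSeq (promoter chr7:13023902-13024201), and the bins named Trim28 lay around the latter and in the 3′ part. Of the 25 bins counted in the density over this model and 3 kb before it, 12 carried the name Trim28. Its bins were all in the promoter class and stayed between percentiles 5.29 and 65.0. In females the bin before the RefSeq start (chr7:13022779-13023279) was at 2.54, 2.51 and 2.71 (percentiles 32.9, 65.0 and 59.0), and the bin just after it (chr7:13024534-13025034, a CpG-rich bin) at 2.47, 2.11 and 2.53 (percentiles 22.4, 7.23 and 36.2). In males 1 peak of 2382 bases spanned both places and was read at 1.97 and 2.66 in the bin over the start site (chr7:13023902-13024402) in controls and at 8 weeks, and at 2.11 in another bin at 3 weeks. The 3′ part was listed in females at 2.23 at 3 weeks and 2.26 at 8 weeks (percentiles 21.1 and 5.29), and in males at 2.07 in controls and 1.89 at 3 weeks. The male control value was read in a bin over the neighbouring Chmp2a. By log2 CPM no Trim28 bin was above percentile 65.0.

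Each HP1 gene had a listed peak at its start site in 1 or more tables of each sex, with a level that varied between tables. Such peaks were common, overlapping 79.7% of CpG-rich promoters by the female and 83.2% by the male peak sets. Cbx5 (HP1α, chr15:103191544-103239816, minus strand) had 1 female peak, a CpG-rich bin of 403 bases over the start site (chr15:103239567-103239969), at 2.76 in controls, 2.19 at 3 weeks and 2.98 at 8 weeks. These are percentiles 63.5, 16.4 and 81.4, or 66.9, 43.2 and 76.5 per 500 bases, so the 3-week value was the lowest on both scales. Males listed Cbx5 at 8 weeks alone, with bins of 154 bases at the same start site (chr15:103239837-103239990, 2.16) and of 179 bases at a second one (chr15:103215266-103215444, 2.41). As these bins are short they stood at percentiles 0.163 and 7.47 by log2 CPM but at 94.9 and 95.5 per 500 bases, so their rank rests on the scale.

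Cbx1 (HP1β, chr11:96789127-96808640, plus strand) was listed at its start site in all 6 tables. In females the bin chr11:96789134-96789634 was at 3.00 in controls, 2.42 at 3 weeks and 3.07 at 8 weeks, at percentiles 85.1, 52.3 and 86.5. In males chr11:96789032-96789532 was at 1.96, 1.99 and 2.81, at percentiles 31.6, 43.2 and 58.6. In each pair of tables the female bin had the higher percentile, and the male minus female difference was -53.6 points in controls, -9.01 at 3 weeks and -27.9 at 8 weeks. Males had a second bin of 338 bases within the gene, over the single exon of Gm11517 on the other strand (chr11:96795438-96795775), at 2.22, 2.26 and 2.55, which no female peak overlapped.

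Cbx3 (HP1γ, chr6:51470360-51483704, plus strand) shares its start region with Hnrnpa2b1 on the other strand, within a peak of 1958 bases in females and 2119 in males that was listed in all 6 tables. The listed bin carried the name Cbx3 in 1 female and 2 male tables and Hnrnpa2b1 in the others. Over both names it was at 2.99, 2.20 and 3.14 in females and 2.58, 1.74 and 2.68 in males (controls, 3 weeks, 8 weeks), in bins that differed between the 3-week and the other tables in females and among all 3 tables in males. The second Cbx3 peak, of over 2 kb and 17 kb past the TSS in intergenic sequence, was listed throughout, at 3.06, 2.88 and 3.17 in females and 2.52, 2.40 and 3.31 in males, at percentiles 87.1 to 93.8, or 60.3 to 72.5 per 500 bases.

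The age comparison set the 8-week table of both diets against the 3-week table of both diets within a sex, 2 tables that share no library, over the bins with the same coordinates in both. The median of all shared bins (0.23 over 76657 female bins, 0.63 over 69096 male bins) was subtracted from each difference of average log2 CPM. Of the members, 20 female and 17 male bins were shared. The 20 female bins had a median of 0.03 (10 higher, 10 lower) and the 17 male bins a median of 0.01 (10 higher, 7 lower), where all shared bins have a median of 0 by construction. The 5th to 95th percentile of all shared bins ran from -0.44 to 0.49 in females and from -0.46 to 0.52 in males. Above it lay 1 member bin in females and none in males, and below it 3 in each sex.

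Bins were also divided by sequence. All CpG-rich bins were higher at 8 weeks by a median of 0.16 over 6010 female and 0.24 over 6285 male bins, against -0.01 and -0.02 for the other bins. The members' CpG-rich bins were higher in 4 of 5 cases for females and in 3 of 3 for males, where the share of all CpG-rich bins was 75.6% and 83.9%. The members' other bins were lower in 9 of 15 cases for females and in 7 of 14 for males, where the share of all such bins was 52.2% and 53.4%. The members' counts are near those shares. In females the CpG-rich bins that were higher were Cbx5 by 0.56 (percentile 96.7 of all shared bins), Cbx1 by 0.42 (percentile 92.7), the bin over Gm6728 before Atf7ip by 0.31 and the bin after the Trim28 start by 0.19, and the exception was the Ehmt1 start site at -0.02. In males these were the Ehmt1 start site by 0.36 (percentile 88.4), Setdb2 by 0.23 and Cbx1 by 0.19. With the median of the same GC decile subtracted in place of the overall median, an alternative chosen after seeing the data, these differences were 0.40, 0.26, 0.26, 0.03 and -0.18 in females and 0.13, 0.01 and -0.04 in males. GC content moved with the result, and its part in the result was not tested.

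**Figure D4:**
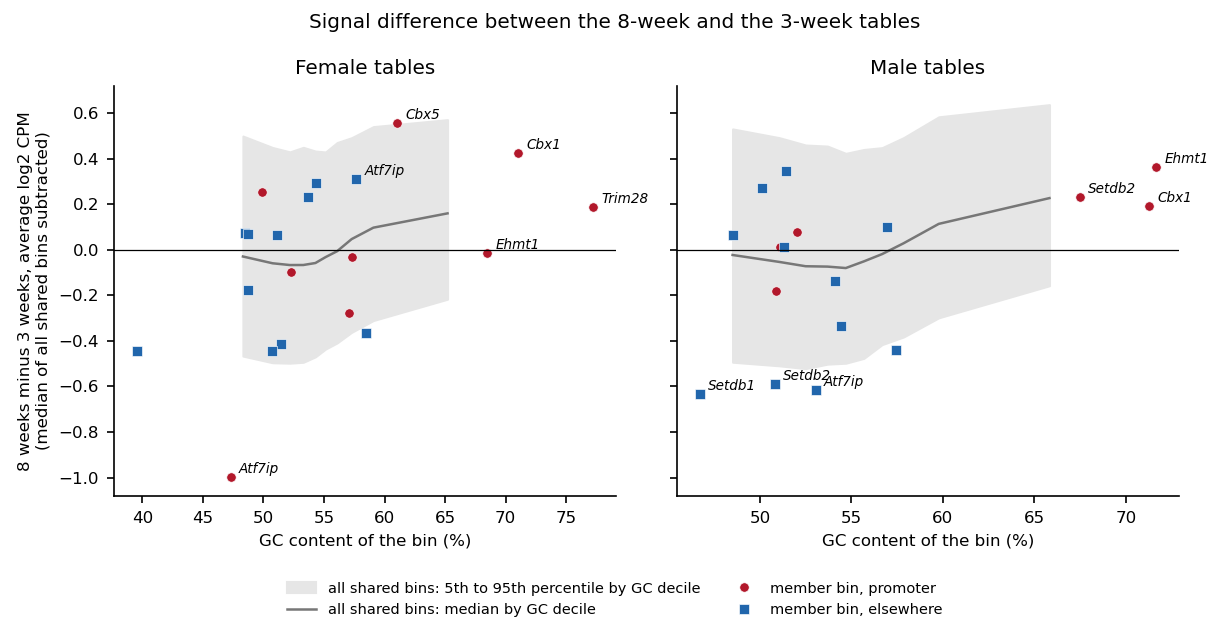
Difference of average log2 CPM between the 8-week and 3-week tables after subtraction of the median of all shared bins (vertical axis) against the GC content of the bin (horizontal axis, %), in females and males. The grey line and band are the median and the 5th to 95th percentile of all shared bins by decile of GC content; the members' CpG-rich bins lie at the right at up to 0.56, and the Atf7ip internal promoter in females is at -1.00.

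The lowest member bin was the internal promoter of Atf7ip in females, at -1.00, which ranked 8th from the lowest of the 76657 shared bins. With the GC decile median subtracted it was at -0.97. In males this place was read in different bins at both ages and gave no difference. Other low bins of females were Atf7ip intron 5 at -0.44, the intergenic bin past Ehmt1 at -0.44, Atf7ip intron 1 (chr6:136510011-136510325) at -0.41 and the nearer Setdb1 peak at -0.37. In males the lowest were the farther Setdb1 peak at -0.63 (percentile 1.04), the bin 10.7 kb before Atf7ip (chr6:136495150-136495445) at -0.62, the Setdb2 bin over Gm16301 at -0.59 and Atf7ip intron 13 at -0.44. With no median subtracted, the first 3 of these male values were -0.0023, 0.02 and 0.04, so those bins kept about the same log2 CPM while the male bins in general were higher at 8 weeks. The strong Atf7ip intron 1 bin (chr6:136514247-136514747 in females) was at 0.07 in females and 0.06 in males, and at -0.19 and -0.17 with the median of the same signal decile subtracted. As the 8-week mice were further cohorts, age and cohort cannot be told apart here.

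As the authors' own comparisons of the diets were set aside, diet was approached through the means of tables that mix it. Within a sex, the mean of the 3-week and 8-week tables of both diets was set against the control table, for bins in all 3 tables, with the median of all such bins subtracted. The tables of both diets hold as many control as maternal obesity libraries, so the difference is only a part of that between the diets. These tables share the control libraries, so the values are given side by side and no more. The 16 member bins of females had a median of -0.11 (13 lower, 3 higher), against a 5th to 95th percentile of -0.18 to 0.19 over 66676 bins. The lowest were the Ehmt1 bin chr2:24840238-24840702 at -0.22 and the Ehmt1 start site at -0.18, and the highest was the bin before the Trim28 start at 0.20. The 17 member bins of males had a median of 0.01 (9 higher, 8 lower), from -0.21 at Ehmt1 (chr2:24838741-24839019) to 0.25 at the Cbx1 start site. In each sex 3 member bins were outside the 5th to 95th percentile of all bins. The Ehmt1 start site was at 0.14 in males and so on the other side of the median from females.

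Female and male peak sets were merged separately by the authors, so places were matched by overlap. A male peak overlapped 34 of the 38 female member peaks (89.5%, against 77.1% of all female peaks), and a female peak overlapped 32 of the 44 male ones (72.7%, against 72.8%). The members are all autosomal, whereas the shares of all peaks include the X chromosome. The study reported proportionally more peaks on that chromosome in females than in males. Member bins that overlapped by at least 50% of both lengths made 16 pairs in the control tables, 19 at 3 weeks and 9 at 8 weeks. The median male minus female percentile was -1.96, -0.257 and -0.858 points, and the median size of the difference 8.56, 9.01 and 11.4 points. Over all bins paired alike (54633, 56658 and 49276 pairs) the medians were 4.38, 2.86 and -0.620 points, and the sizes 14.0, 15.4 and 12.6 points. By log2 CPM the pairs farthest apart were at 3 weeks: the farther Setdb1 peak was at percentile 99.2 in males and 15.9 in females, where the bin is 330 bases long, and the Ehmt2 bin within the gene was at 89.0 in females and 11.5 in males, where the bin is 336 bases long. Per 500 bases the gaps were smaller, with Setdb1 at 85.8 in males and 65.9 in females and Ehmt2 at 64.7 in females and 55.2 in males. The Atf7ip intron 1 bin chr6:136514247-136514747 and its male counterpart differed by at most 1.42 points between the sexes.

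Other genes of the pathway were read from lists by role. Of the SUV39 and PRDM class, all 4 genes had bins in the female tables and 3 in the male ones: Suv39h1, which is X-linked, had 16 bins in females (up to percentile 99.6) and none in males, and the long Prdm16 had 255 bins in all. The median percentile of this class was 30.9 to 40.8 by table. Of the HUSH complex and its partner Morc2a, which work with SETDB1, 3 or 4 of the 4 genes had bins in each table. These came to 5 to 12 bins a table, with median percentiles of 38.5 to 67.3 and Morc2a up to percentile 98.1. The SETDB1 and G9a partners Atf7ip2, Wiz, Zfp644, Cdyl and Cdyl2 had bins in all 6 tables (49 to 81 a table), with median percentiles of 47.7 to 66.0. Of 9 other heterochromatin factors, 7 to 9 had bins, with median percentiles of 37.6 to 49.2, and Atrx, also X-linked, had 19 bins in females and 2 in males. Zinc finger genes with a Zfp number, many of which encode KRAB proteins that recruit TRIM28, had 1603 to 2315 bins a table with median percentiles of 54.1 to 60.1. Over the 4 lists together the 8-week minus 3-week difference had a median of 0.04 over 89 female bins and -0.02 over 81 male bins.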

How the data were processed

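Livers gave 32 H3K9me3 ChIP libraries. For the deposited tables the authors mapped reads to mm10/GRCm38 (BWA), used MACS2 in broad mode, discarded peaks in blacklisted sequence, required a peak in several replicates, pooled the peak sets within each sex, split longer peaks into 500-base bins and counted reads per bin with featureCounts before testing in edgeR. Each of the 6 deposited tables holds, per bin, the authors' average log2 CPM, used here, and the authors' fold change, p-value and false discovery rate, which were not used. The deposited log2 values average the 8 libraries of a table, so they give no spread between animals and no depth per library, no test was made here, and the results are descriptions.

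Bins were taken by symbol. Percentiles, differences between tables, overlaps, GC content, CpG ratio and soft-masked share were computed with Python 3.11.15, pandas 2.3.3, numpy 2.4.6 and pysam 0.24.0 from the GRCm38.p6 sequence and GENCODE gene models; 0 bins lay past a chromosome's end. The functions were tested on simulated data. Per-sample columns left unused numbered 0. The members and lists were chosen with earlier results of these data known. Named bins were all member bins in promoters and gene bodies and intergenic bins within 50 kb, and for genes with over 6 bins the highest, the lowest and those in all 3 tables of a sex. Input libraries were not used here, and the sequences printed are a selection.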

Additional observations from a re-analysis of the deposited data

How the results depend on the processing

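Values with no spread were taken as moved when they shifted by over 10 percentile points or 0.1 on the log2 scale, and counts when they shifted by over 1.5 times. The number of member bins, restricted to the gene's own span or to promoters and gene bodies, and the number in promoters within 1 kb stayed within that limit in every table. The members' median percentile did so per 500 bases, within annotation class and among autosomal bins. Without Atf7ip, a setting chosen after seeing the data, it was 29.4 in the female 3-week table and 42.0 in the male 8-week table, so the medians there rest on that gene. With no median subtracted, the members' median age difference was 0.25 in females and 0.65 in males, and the difference of the tables of both diets from the control table was -0.24 and 0.20, which includes the shift of all bins. Over peaks of a single bin, also chosen after seeing the data, the age difference was 0.15 in females (6 bins) and -0.33 in males (7 bins). Counting any overlap gave 14 female and male pairs at 8 weeks. Of 37 single member bins, the sign of the age difference changed for 5 with the median of the same signal decile subtracted, for 1 (the Cbx1 start site in males) with that of the GC decile, for 10 with none, and for 0 with the autosomal median. The setting with none subtracted shifts all bins of a sex alike. By signal decile the Atf7ip last exon in females went from 0.23 to -0.03. No paired analysis was possible because the tables hold 1 mean per bin over 2 groups and no value per library, and for the same reason no library could be left out. The tables keep 1 bin per peak, so a bin's absence says nothing about the mark there, and differences between bins of 1 peak enter every comparison in which the bins differ.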
